A study of Mus musculus with 2 samples.

Results

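The genes described are 29 genes of cholesterol synthesis, uptake and transport and of their control by the SREBP transcription factors, read in G1E cells, out of 43346 genes with an Ensembl identifier in the gene tables. Their symbols were taken from the textbook pathway by name and looked up in both gene tables, and all 29 had a row. The list was proposed with the TPM and expected counts of these libraries in view, and its genes count as chosen by those measured values, so levels, and the limits they are read against, are given as a description. The study made total RNA libraries, cleared of ribosomal RNA, from 2 G1E samples that the labels number as biological replicates 1 and 2. G1E is an immortalized mouse line, given as C57BL/6J and male, at postnatal age 0 day, and labelled a Gata1- erythroid progenitor. Both libraries share that genotype, and the labels name no treatment, no second genotype and no control group. All values therefore describe 1 group from 1 line, and any p-value below compares 2 libraries, whose spread may be partly technical.

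Cells build cholesterol from acetyl-CoA through mevalonate, isopentenyl and farnesyl diphosphate, squalene and lanosterol. When sterol in the endoplasmic reticulum is plentiful, the Insig proteins hold Scap and the SREBP precursors there. When sterol falls, Scap carries the precursors to the Golgi, where they are cut and released to switch on the genes of the pathway. The mature red cell has no organelles and makes no cholesterol, so the sterol of its membrane comes from earlier stages or from exchange with plasma.

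The libraries held 58094631 and 55274368 expected counts on genes in replicates 1 and 2. All 12 erythroid progenitor markers reached 1 TPM (a level scaled to the library and corrected for transcript length) in both libraries. Their median stood at 24.9 ± 0.643 TPM (SD of the list medians, n = 2), and Car2 was the highest at 272 ± 4.19 TPM. Gata1 itself stood at 7.06 and 7.13 TPM from 1862 and 1922 counts, and as the labels do not say which part of the gene was disrupted, this does not check the label. Of 6 markers of liver and steroid-making cells, in which sterol genes run high, 1 reached 1 TPM, Cyp11a1 at 3.37 and 2.91 TPM, of summed levels of 3.73 and 3.14 TPM for all 6. Of 6 macrophage markers, 1 reached 1 TPM, Lyz2 at 1.34 and 1.33 TPM, the list summed to 1.66 and 1.62 TPM, and C1qa was at 0 counts in both libraries, where 0 allows up to 3 counts.

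Sterol genes are known for promoters in which a sterol regulatory element, bound by SREBP, lies near boxes for NF-Y and for the GC-binding factor Sp1. RefSeq promoter windows (GRCm38.p6, from 250 bases before to 50 after each start) were found for 24 of the 29 genes, with 32 windows in all. Fdps, Fdft1, Sqle, Npc1 and Stard4 had none. The sequences below belong to the gene that carried the only match to the longer form of the element and to 3 genes of the control machinery. They run 5′ to 3′ with motif matches in capitals, and stop short of the window's end. The last position is -1 for Hmgcs1 and Srebf1, -89 for Srebf2 and -50 for Insig1. Matches past it are not printed: GC boxes of Srebf2 at -79 to -74, -52 to -47, -34 to -29 and 20 to 25, and of the Srebf1 middle start at 9 to 14. In Hmgcs1 these are an NF-Y box at 11 to 15 and a GC box at 33 to 38. The motifs searched, on both strands, were TCACNCCAC for the sterol regulatory element, CCAAT for the NF-Y box (ATTGG when read on the other strand) and GGGCGG for the GC box (CCGCCC on the other strand). An 8-base form of the element, TCACCCCA, was added after the data were seen, and it overlaps the longer form.
Hmgcs1, chr13:119690101-119690350, plus strand: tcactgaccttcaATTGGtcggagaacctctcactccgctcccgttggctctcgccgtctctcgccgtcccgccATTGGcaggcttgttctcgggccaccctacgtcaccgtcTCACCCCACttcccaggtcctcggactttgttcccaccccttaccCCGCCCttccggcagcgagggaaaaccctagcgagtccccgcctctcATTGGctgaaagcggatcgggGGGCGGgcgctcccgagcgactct
Srebf2, chr15:82147019-82147180, plus strand: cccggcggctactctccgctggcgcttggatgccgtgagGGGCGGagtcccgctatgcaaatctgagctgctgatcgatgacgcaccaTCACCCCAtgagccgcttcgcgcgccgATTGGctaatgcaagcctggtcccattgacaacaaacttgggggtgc
Srebf1 middle start, chr11:60220628-60220877, minus strand: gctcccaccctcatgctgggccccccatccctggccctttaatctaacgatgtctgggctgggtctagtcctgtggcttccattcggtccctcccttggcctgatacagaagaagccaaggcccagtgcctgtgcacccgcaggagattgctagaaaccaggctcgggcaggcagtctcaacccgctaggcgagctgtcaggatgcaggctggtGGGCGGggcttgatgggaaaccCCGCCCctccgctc
Srebf1 downstream start, chr11:60210472-60210721, minus strand: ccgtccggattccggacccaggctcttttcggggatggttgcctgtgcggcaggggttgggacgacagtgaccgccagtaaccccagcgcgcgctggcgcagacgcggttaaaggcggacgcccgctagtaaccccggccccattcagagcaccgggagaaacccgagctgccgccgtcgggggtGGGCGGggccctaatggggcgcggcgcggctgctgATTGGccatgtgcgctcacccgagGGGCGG
Insig1, chr5:28071162-28071362, plus strand: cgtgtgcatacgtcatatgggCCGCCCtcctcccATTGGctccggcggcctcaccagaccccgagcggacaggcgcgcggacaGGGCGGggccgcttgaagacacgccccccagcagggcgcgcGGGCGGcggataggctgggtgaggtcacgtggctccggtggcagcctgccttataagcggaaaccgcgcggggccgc

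TCACNCCAC matched in Hmgcs1 alone of the 24 genes, at positions -137 to -129 from its start, which is 4.17% of them beside 1.44% of the 27025 genes with a window. The 8-base form matched in Hmgcs1 and, at positions -162 to -155, in Srebf2, the gene of one of the SREBP factors themselves. That is 8.33% of the 24 genes beside 1.77% of all genes. Letters of the NF-Y box were in the windows of 22 of the 24 genes (91.7%), against 41.1% of all genes. Of the 6780 genes with a window that reached 1 TPM in both libraries, 44.5% held them. The GC box was also in 22 of 24 (91.7%), against 38.2% of all genes and 71.6% of the genes at 1 TPM. Counted per window, CCAAT was in 23 of 32 and GGGCGG in 26 of 32, beside 37.4% and 35.7% of all 32851 windows. In a shorter window from 100 bases before the start, 0 of the 24 genes held either form of the sterol regulatory element. The 9-base and 8-base forms were in 0.72% and 0.78% of all genes there. CCAAT was in 19 of the 24 (79.2%), against 26.3% of all genes and 31.1% of the genes at 1 TPM. GGGCGG was in 15 (62.5%), against 31.5% of all genes. That is near the 61.3% of the genes at 1 TPM, so the GC box did not set the list apart from them in this window. A match is a run of letters and not a measured binding site. A window without these exact letters does not show that the gene lacks the element.

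**Figure D1:**
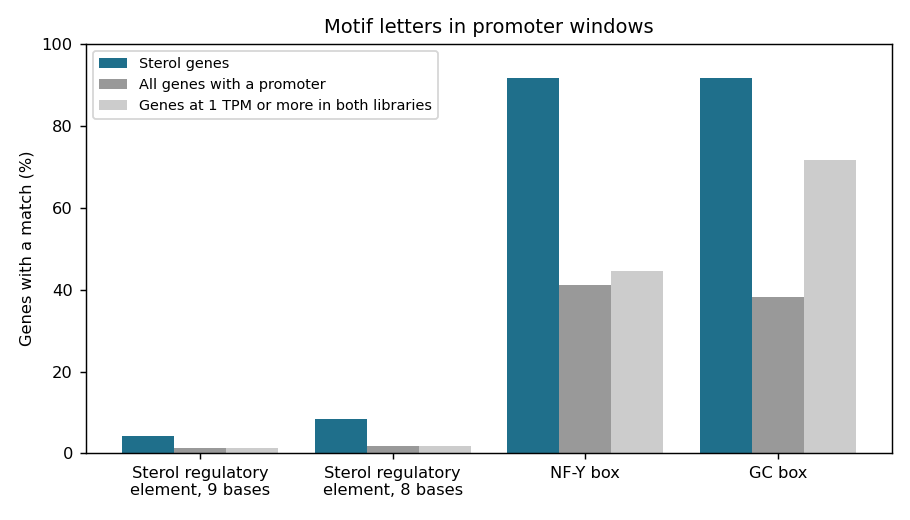
Share of genes (%) whose promoter window held each motif. Shown are the 24 sterol genes with a window, all 27025 genes with one, and those of them at 1 TPM or more in both libraries. The NF-Y and GC boxes each stood at 91.7% of the sterol genes, and the 9-base and 8-base forms of the sterol regulatory element at 4.17% and 8.33%.

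At 1 TPM or more in both libraries, 27 of the 29 genes were detected, beside 38.7% of the 21461 nuclear protein-coding genes, and all 19 biosynthetic enzymes were among them. Since the list was chosen with these levels known, nothing is read from that gap. In bulk RNA, fewer cells that express a gene and less RNA per cell cannot be told apart. Exons of Cyp51, Srebf1, Fdft1, Ggps1, Npc1, Scap and Lss overlap another gene on the opposite strand, and Acat2, Idi1, Fdps, Fdft1 and Tm7sf2 had counts that were not whole because reads were divided between genes, so these levels are less certain. The deposited posterior SD of the count was at most 0.0091 of its mean among the 29 genes, in Tm7sf2, and 0.0019 or less in Idi1. The genes not detected were Insig1, which retains Scap in the endoplasmic reticulum, and Mylip, the ubiquitin ligase that sends lipoprotein receptors for destruction. Across the 29 genes the median was 11.6 TPM, with list medians of 10.4 and 11.2 TPM in replicates 1 and 2, beside a median of 7.0 TPM over the detected nuclear protein-coding genes. Levels ran from 0.05 to 163 TPM, a 3253-fold span. The 5 highest genes, Idi1, Msmo1, Fdps, Hmgcs1 and Soat1, held 66.1% and 65.6% of the summed TPM of the list.

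**Figure D2:**
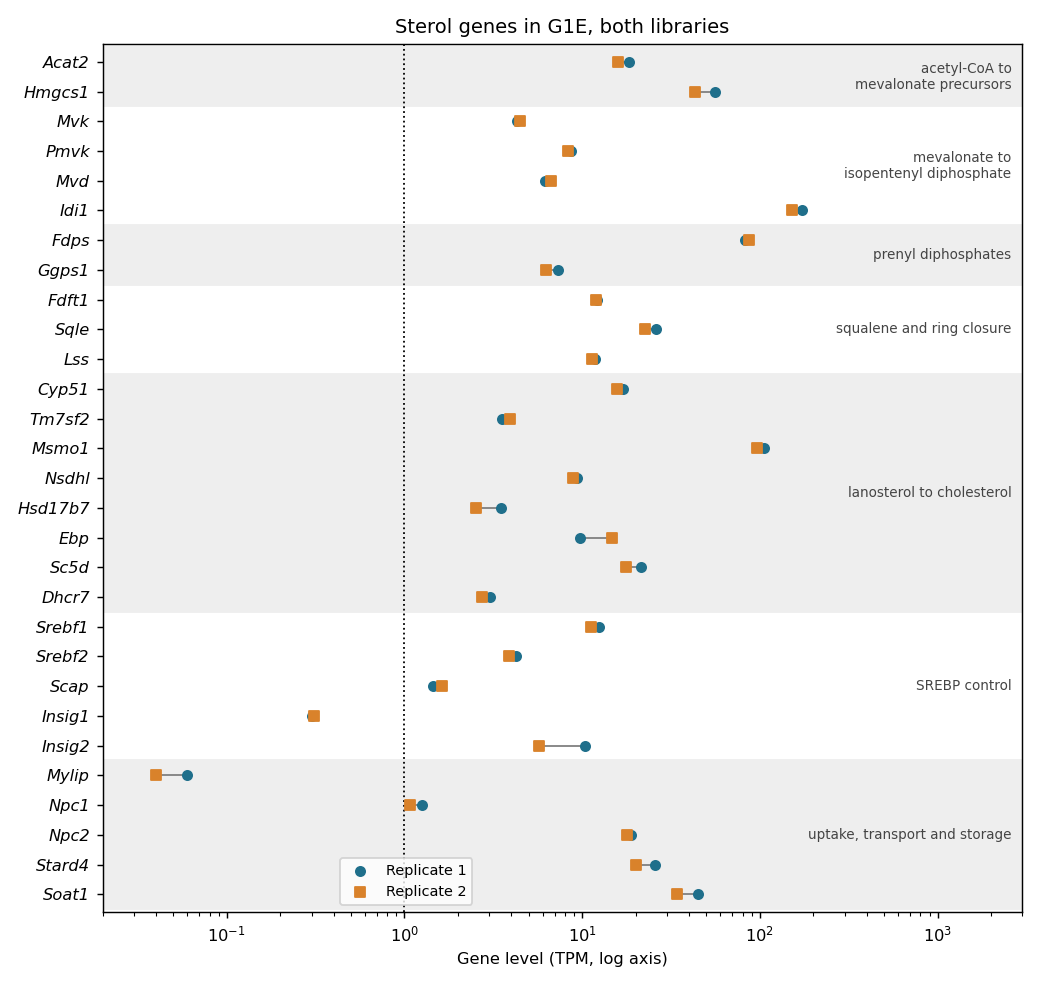
Level of each gene in replicate 1 (circles) and replicate 2 (squares) in TPM on a log axis, in pathway order, with a dotted line at 1 TPM. Idi1, Msmo1 and Fdps stood highest, Insig1 and Mylip lay left of the line in both libraries, and Ebp and Insig2 showed the widest gaps between libraries among genes above it.

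Of the enzymes that lead to mevalonate, Acat2, the cytosolic thiolase that joins acetyl-CoA units, stood at 18.26 and 15.99 TPM in replicates 1 and 2 (17.1 ± 1.61, SD, n = 2). Hmgcs1, the synthase of the next step, stood at 56.08 and 42.89 TPM (49.5 ± 9.33). Both libraries put Hmgcs1 above Acat2, without overlap. To compare genes, a difference in log2(TPM + 1) was read against the replicate spread pooled over all genes of like level, with limits of 0.75 from 1 to 10 TPM, 1.05 from 10 to 100 and 1.52 from 100 to 1000. By that measure Hmgcs1 exceeded Acat2 by 1.47 ± 0.14 (log2, SD, n = 2), beyond the limit, although replicate 2 alone (1.37) did not pass the wider limit for a single library.

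From mevalonate to isopentenyl diphosphate, the 3 early enzymes were modest and the isomerase was the highest gene of the list. Mvk, which phosphorylates mevalonate, stood at 4.31 and 4.44 TPM, and Pmvk, which adds the next phosphate, at 8.63 and 8.35 TPM. Mvd, the decarboxylase that yields isopentenyl diphosphate, stood at 6.14 and 6.68 TPM. In contrast Idi1, which converts isopentenyl to dimethylallyl diphosphate, stood at 173.54 and 151.80 TPM (163 ± 15.4, SD, n = 2) from 75070.91 and 66690.21 expected counts. It lay at percentile 99.2 of nuclear protein-coding genes and made up 24.8% and 24.2% of the list's TPM. Idi1 exceeded Mvd by 4.46 ± 0.21 (log2), beyond the limit of 1.52, while Mvd over Mvk (0.46 ± 0.05) lay within the limit of 0.75. Its paralog Idi2 had 0.21 and 0.22 TPM.

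The prenyl diphosphate synthases differed widely. Fdps, which makes farnesyl diphosphate, stood at 81.96 and 86.54 TPM (84.3 ± 3.24), and Ggps1, which extends it to geranylgeranyl diphosphate for protein prenylation, at 7.27 and 6.22 TPM (6.74 ± 0.742). Fdps was higher by 3.46 ± 0.19 (log2), beyond the limit of 1.05. At the branch toward sterols, Fdft1, the squalene synthase, stood at 12.19 and 11.90 TPM. Its difference from Ggps1, 0.76 ± 0.12 (log2), lay within the limit, and passed it only without a correction for length (1.12 in log2 of CPM + 1). The next enzymes were Sqle, which oxidizes squalene, at 26.09 and 22.45 TPM, and Lss, which closes the ring to lanosterol, at 11.81 and 11.41 TPM. Sqle over Lss was 1.00 ± 0.11 (log2) against a limit of 1.05, and became 1.77, beyond the limit, when only coding transcripts were counted.

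The 8 enzymes from lanosterol to cholesterol had a median of 10.7 TPM and ran from 2.89 to 101 TPM. Msmo1, the methyl oxidase, led them at 105.79 and 95.95 TPM (101 ± 6.96, SD, n = 2), from 26899 and 25511 counts. Nsdhl and Hsd17b7, its partners in removing the C4 methyl groups, were lower at 9.29 and 8.90 TPM and at 3.48 and 2.52 TPM. Msmo1 exceeded Nsdhl by 3.33 ± 0.06 (log2), beyond the limit of 1.52. With coding transcripts only the difference was 2.80, beyond the limit of 0.78 there. The RNAs of these partner enzymes thus did not share a level, and protein was not measured. Cyp51, the lanosterol demethylase, stood at 17.06 and 15.68 TPM. Ebp, the sterol isomerase, stood at 9.77 and 14.74 TPM and had a larger ratio of TPM between the libraries than any other enzyme of the list. Sc5d, the desaturase, stood at 21.29 and 17.60 TPM, against 3.04 and 2.74 TPM for Dhcr7, which reduces the product of Sc5d in one branch of the pathway. Dhcr7 was lower than Sc5d by 2.39 on the log2 scale (mean -2.39 ± 0.11), beyond the limit of 1.05.

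Reduction of the sterol C14 double bond can be carried out by Tm7sf2 or by Lbr, the lamin B receptor, whose sterol reductase domain is known to supply this step in many cells. Tm7sf2 stood at 3.53 and 3.95 TPM and Lbr, which is not one of the 29 genes, at 49.03 and 42.39 TPM. Lbr exceeded Tm7sf2 by 3.30 ± 0.24 (log2), and Cyp51, one step earlier, exceeded Tm7sf2 by 1.87 ± 0.17, both beyond the limit of 1.05. In CPM, with no correction for length, these differences were 5.06 and 3.87. Tm7sf2 shares 532 exon bases with Vps51 on the same strand, so its level is uncertain.

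Of the 5 genes of SREBP control, 4 reached 1 TPM, and their median was 4.04 ± 0.262 TPM (SD of the list medians, n = 2), below the enzymes' list medians of 11.8 and 11.9 TPM. Srebf1, the factor best known for fatty acid genes, stood at 12.41 and 11.22 TPM, and Srebf2, best known for sterol genes, at 4.22 and 3.85 TPM. By gene TPM, Srebf2 was lower by 1.35 on the log2 scale (mean -1.35 ± 0.02), beyond the limit of 1.05. That call rests on how Srebf1 is counted: the difference was -0.42 with coding transcripts only and -0.39 in CPM, scaled counts with no length correction, both within their limits. It was also within the wider limit of a single library in either replicate (-1.36 and -1.33).

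Scap, the escort of both factors, stood at 1.44 and 1.62 TPM. Insig1 stood at 0.30 and 0.31 TPM from 125 and 133 counts (0.305 ± 0.0071), where 3 counts would give 0.0072 and 0.0070 TPM, so it was measured well above the floor but low. Insig2, its paralog, stood at 10.41 and 5.71 TPM (8.06 ± 3.32). Insig1 lay below Insig2 by a mean of -2.75 ± 0.55 and below Scap by -0.95 ± 0.06 (log2), both beyond the limit of 0.75, which genes under 1 TPM take from the range of 1 to 10 TPM. The size of these differences depends on the pseudocount, since 1 is large beside the level of Insig1: with 0.1 they were -4.27 and -2.01, in rescaled TPM -4.04 and -1.83, and in CPM -3.09 and -2.58, all beyond their limits. For Scap the call did not survive the authors' posterior mean TPM (-0.95 against a wider limit) or either replicate alone (-0.91 and -1.0). Srebf2 exceeded Scap by 0.99 ± 0.15, and this call too was lost with the posterior mean TPM (0.99) and with replicate 2 alone (0.89).

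In uptake, transport and storage, Mylip was the lowest of all 29 genes at 0.06 and 0.04 TPM from 30 and 20 counts. Npc1, the membrane protein that exports cholesterol from lysosomes, stood at 1.25 and 1.07 TPM, and Npc2, its soluble partner, at 18.91 and 17.93 TPM. Npc2 exceeded Npc1 by 3.17 ± 0.03 (log2), beyond the limit of 1.05. Stard4, a carrier of cholesterol between membranes, stood at 25.82 and 20.01 TPM. Soat1, which esterifies cholesterol for storage, stood at 45.05 and 34.04 TPM (39.5 ± 7.79). Soat1 over Stard4 (0.76 ± 0.03, and 0.27 with coding transcripts only) lay within the limit, as did Mylip over Insig1 (-0.31 ± 0.03), which passed with a pseudocount of 0.1 (-1.44) and in CPM (-1.19).

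Ordered by mean TPM, none of the 28 steps from one gene to the next lower one was beyond the replicate spread. Ranks of neighbours, the closest pairs of the order, are therefore not resolved by log2(TPM + 1). With a pseudocount of 0.1, Npc1 over Insig1 (1.63) and Insig1 over Mylip (1.44) were beyond the limit of 0.94. Idi1 first differed beyond the limit from Hmgcs1, 3 places down, and Msmo1 from Sqle, 4 places down. Fdps differed first from Soat1, 2 places down. Sqle did not differ beyond the limit from any gene until Nsdhl, 10 places below it. With coding transcripts only, 6 neighbouring steps were beyond the spread. In CPM 10 of the 28 steps changed sign, 4 of them beyond the limit there: Fdps over Hmgcs1 (0.77 by TPM, -0.76 in CPM), Acat2 over Cyp51 (0.06 and -0.79), Mvk over Srebf2 (0.10 and -1.62) and Tm7sf2 over Hsd17b7 (0.25 and -1.54).

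The transcript tables show how far these gene levels rest on non-coding isoforms, many but not all of them short. Of the 29 genes, 10 had 1 transcript and 19 had more. In 15 of the 19 the same transcript led in both libraries, and in 15 of the 19 the leader was coding in both. The leader differed between the libraries in Ebp, Sc5d, Srebf1 and Insig2, and was a retained-intron transcript in both for Soat1. On average over both libraries, coding transcripts held under 60% of the TPM of 5 genes, Lss (47.4% and 52.7% in the replicates), Ebp (mean 51.7%), Srebf1 (48.5%), Insig2 (47.6%) and Soat1 (53.4%), beside 14.2% of detected nuclear protein-coding genes under that mark. The median coding share was 96.3% in the 29 genes and 95.8% in the detected genes.

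**Figure D3:**
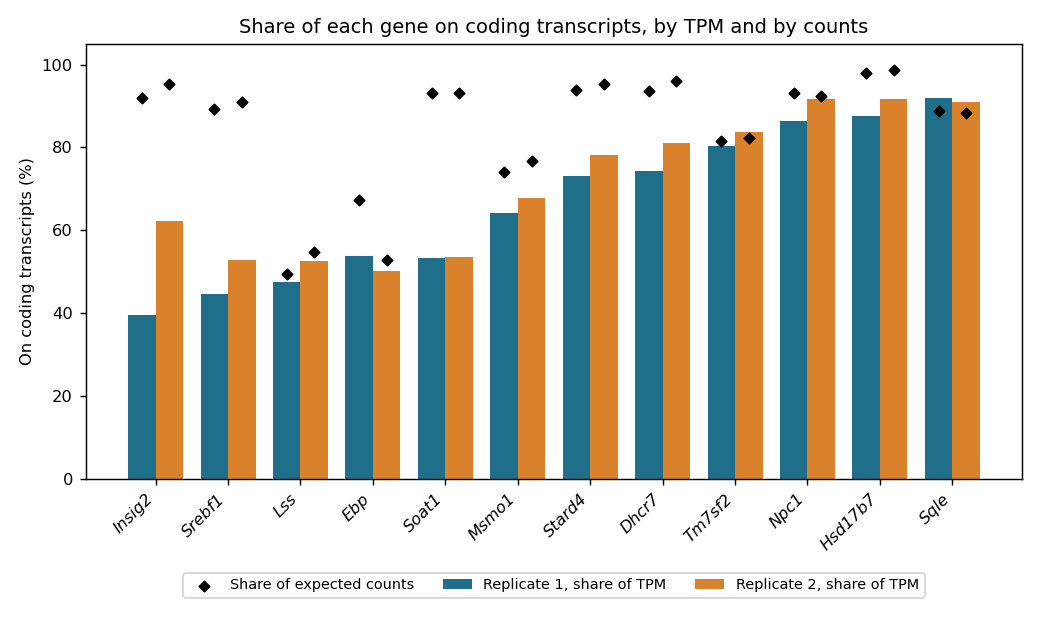
Share of each gene on coding transcripts (%), as bars by TPM in each library and as diamonds by expected counts, for the 12 genes whose mean share of TPM was under 95%. For Insig2, Srebf1 and Soat1 the bars lay between 39.6% and 62.3% while the diamonds lay between 89.2% and 95.3%.

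Insig2 shows the difference between the scales. Its retained-intron transcript Insig2-206, 334 nt long, took 133.99 and 48.14 counts, 7.84% and 3.54% of the gene's counts, yet 6.27 and 1.94 TPM, 60.24% and 33.91% of its TPM. The effective length that the authors' method assigned to it was 126.62 and 146.08 nt. The full-length coding transcript Insig2-201 took 1533.72 and 1269.71 counts and 3.66 and 2.98 TPM. On coding transcripts Insig2 stood at 4.12 and 3.56 TPM, much closer between libraries than the gene TPM, and still above Insig1, whose single transcript is coding.

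RefSeq gives Srebf1 3 starts, and its middle and downstream starts give the SREBP-1a and SREBP-1c forms. Srebf1-201, from the middle start (transcript start 60220604 on chromosome 11), took 4.06 and 3.32 TPM and 66.7% and 52.8% of the gene's counts. Srebf1-207, from the downstream start (60210465), took 0.11 and 0.29 TPM and 1.29% and 3.35% of the counts. Srebf1-203, whose model begins inside the gene and has no start of its own among the windows, took 1.37 and 2.32 TPM, so reads of the shared exons were split between these models. The most upstream start, at 60222581, is that of a non-coding model of 367 nt, which took 1.43 and 0.71 TPM from 37.92 and 21.59 counts. The model Srebf1-201 exceeded the model Srebf1-207 in both libraries, with no overlap. Srebf1-203 held 21.2% and 34.8% of the counts and cannot be placed with either start. Srebf1-207 also stops at 60200463, whereas the other 2 coding models run on to 60199089. Which of the SREBP-1a and SREBP-1c forms was higher is therefore not settled by these values. Short non-coding models took much of the rest by TPM: a processed transcript of 662 nt stood at 4.42 and 2.67 TPM from 335.28 and 214.14 counts. On coding transcripts alone Srebf1 stood at 5.54 and 5.93 TPM, beside 4.22 and 3.85 TPM for Srebf2.

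Msmo1 stood at 67.82 and 65.13 TPM on coding transcripts, with 74.2% and 76.6% of its counts there, and stayed among the highest genes. In Soat1, the 509-nt retained-intron model Soat1-203 took 18.97 and 13.78 TPM from 951.01 and 745.52 counts, whereas the 8371-nt coding transcript Soat1-207 took 67.1% and 72.9% of the counts and 10.67 and 9.33 TPM. Coding transcripts of Soat1 summed to 24.01 and 18.26 TPM. In Ebp, coding Ebp-201 held 46.94% and 22.65% of TPM in replicates 1 and 2, with the retained-intron Ebp-202 at 40.36% and 43.74% and the short coding Ebp-203 at 6.85% and 27.62%. Coding Ebp stood at 5.26 and 7.41 TPM. In Sc5d both transcripts are coding, and Sc5d-201 held 45.04% and 62.15%. Lss was the only gene with under 60% of its counts on coding transcripts by the mean of both libraries, at 49.5% and 54.8%, and its coding TPM was 5.60 and 6.01. Its non-coding counts lay mostly on long retained-intron models: Lss-204 (6992 nt, 19.6% and 17.9% of counts), Lss-207 (4871 nt, 18.2% and 16.8%) and Lss-206 (3969 nt, 11.6% and 9.2%).

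**Figure D4:**
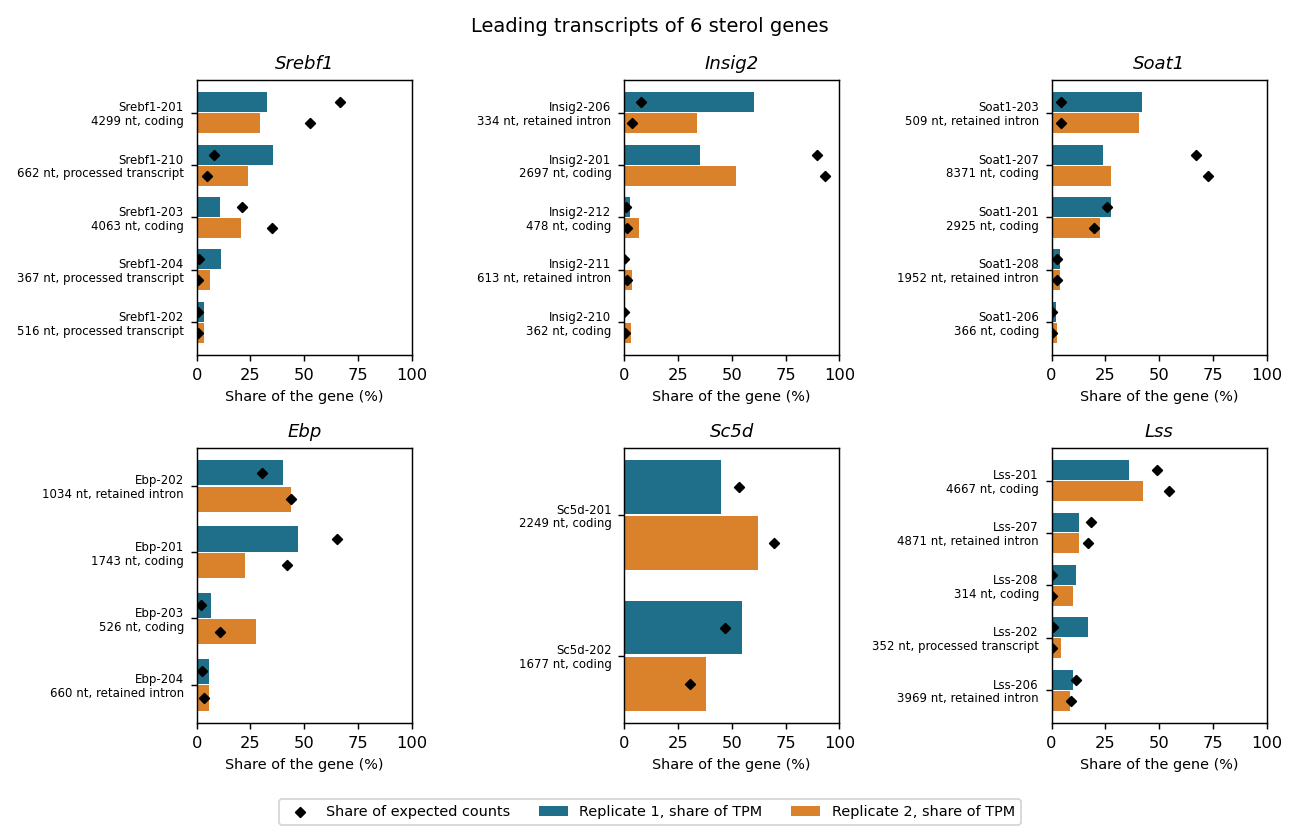
The leading transcripts (up to 5) of 6 genes, with each transcript's share of the gene's TPM as bars per library and its share of the gene's expected counts as diamonds (%). Short models such as Insig2-206 (334 nt) and Soat1-203 (509 nt) held 60.24% and 42.11% of TPM in replicate 1 but 7.84% and 4.34% of counts.

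Between the libraries no gene of the 29 differed 2-fold in counts. In an exact binomial test of the counts with Benjamini-Hochberg adjustment over 18409 genes, 0 of the 29 passed an adjusted p of 0.05 with a 2-fold difference, beside 14.9% of all genes tested. Many of those calls were genes with few counts: of 12103 genes with at least 50 counts 4.60% were called, and still 0 of the 29. At any fold, 12 of the 29 were higher in replicate 2, beside 22.8% of all genes. Another 7 of the 29 were lower, beside 27.3% of all genes. These shares are not matched for depth, as 27 of the 29 genes but 8429 of the 18409 tested had at least 1000 counts. The median log2 ratio of counts was 0.03 for the 29 genes and 0.01 for genes with at least 1000 counts. By unscaled TPM, 22 of the 29 were lower in replicate 2 and 7 higher. The exact test knows counting error only, and compares 2 libraries rather than conditions. The median absolute log2 ratio of counts was 0.17 for the 29 genes and 0.28 for all tested. Among genes with at least 1000 counts it was 0.11 for 27 of the sterol genes and 0.14 for 8429 genes in all. The biological coefficient of variation over all genes, estimated by edgeR, was 16.1%, which gives a log2 ratio of 2 libraries an SD of 0.33. Within this SD lay 27 of the 29 genes. The medians of 0.28 for all tested genes and 0.14 for genes with at least 1000 counts were also under it. Lying within it is therefore not particular to the list.

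Ebp was furthest up in replicate 2, by 0.34 (log2 of scaled counts, from 1811 and 2109 counts, exact binomial test, adjusted p = 1.04e-12), followed by Scap at 0.31 (adjusted p = 3.39e-06). Fdps was 0.24 higher (adjusted p = 1.99e-46) and Hmgcs1 was lower, at -0.24 (adjusted p = 3.56e-76). Both ratios lay within the SD of 0.33, so neither direction exceeds the spread between samples. Mylip had the lowest ratio, -0.46, with an exact 95% interval from -1.35 to 0.40 and an adjusted p of 0.428. For Insig2 the ratio was -0.21 by counts (adjusted p = 0.000293) but -0.73 by gene TPM and -0.08 by coding TPM, each relative to the median gene. Ebp showed 0.73 by gene TPM and 0.63 by coding TPM.

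**Figure D5:**
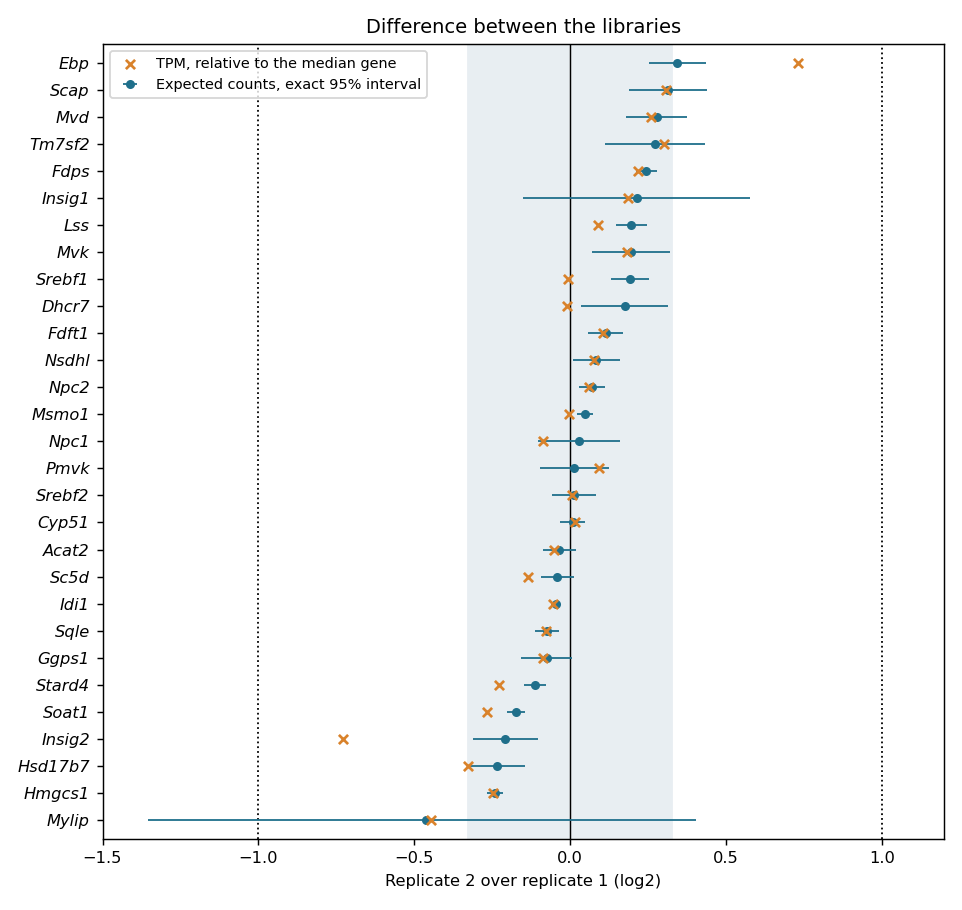
Replicate 2 over replicate 1 on a log2 scale, from counts with exact 95% intervals (circles) and from gene TPM relative to the median gene (crosses). The band is the SD of 0.33 that the coefficient of variation gives and the dotted lines mark 2-fold: no circle passed them, and the crosses of Ebp (0.73) and Insig2 (-0.73) lay furthest from their circles.

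Other genes of the pathway were read from 6 further lists. Their counts of detected genes stand beside 38.7% of nuclear protein-coding genes. Nothing is read from these counts, since the lists were chosen with earlier results of these data known. Of 16 genes that process SREBP or sense sterols, 15 were detected, around a median of 4.86 ± 0.368 TPM (SD of the list medians, n = 2). The highest was the ubiquitin ligase Rnf145 at 22.21 and 19.74 TPM, and the exception was Spring1 at 0.64 and 0.59 TPM. Of 13 fatty acid genes under SREBP, 9 were detected, around a list median of 11.1 ± 0.212 TPM. Scd2, a desaturase, led at 120.15 and 93.34 TPM, while its paralog Scd1 stood at 1.19 and 0.97 TPM. Me1, a malic enzyme, stood at 0.41 and 0.48 TPM, and Thrsp and Pnpla3 were at 0.01 TPM or less.

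All 15 genes that use isoprenoids were detected, from Pdss2, lowest by mean at 2.01 and 1.99 TPM, to Rabggtb, a subunit of the Rab prenyl transferase, at 35.16 and 32.62 TPM. Their median was 4.13 ± 0.198 TPM. Of 14 transport and storage genes, 10 were detected, around a median level of 3.94 ± 0.042 TPM. Plin2, a lipid droplet coat protein, led at 82.81 and 82.88 TPM. Lipa, the lysosomal acid lipase, had 4 and 0 counts, and Stard5, Gramd1b and Soat2, the paralog of Soat1, also stayed under 1 TPM. Among 10 other sterol genes with a row, 7 were detected, and Lbr was highest. Idi2 and Cyp46a1 (5 and 5 counts) were among those under 1 TPM.

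The list of sterol efflux, oxysterol and LXR genes had 10 genes, of which 3 were detected, beside 38.7% of nuclear protein-coding genes. These were Scarb1 at 7.77 and 6.57 TPM, Nr1h2 at 6.02 and 6.52 TPM and Lrp8 at 2.41 and 2.33 TPM. The list median was 0.068 ± 0.021 TPM, near the median of 0.055 TPM over all nuclear protein-coding genes. Abcg1, an efflux transporter, was lowest with 2 and 1 counts. Abca1, another efflux transporter, stood at 0.86 and 0.81 TPM from 1461 and 1316 counts. In the 6 lists the test between libraries called 2 genes, both here and from few counts: Cyp7b1 with 2 and 10 counts and Vldlr with 36 and 8.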

How the data were processed

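Both total RNA libraries of G1E were read from the authors' gene and transcript tables, which name mm10 and GENCODE M4 per the deposited read-me texts. For the aligner, the quantifier and the strand used in counting: not given in the sources used here. Per the file headers, the deposited expected counts are estimated reads (rounded for tests), TPM and FPKM are corrected for effective length, and the deposited percent is each transcript's share of its gene's TPM. The deposited posterior SD and TPM interval bounds are signal values on the scale of the counts or TPM. Rows with numeric names (3.44e-05% and 6.80e-05% of counts) stayed out of library sizes and tests. Symbols, transcript types and overlaps came from GENCODE M21 on the same assembly, and 42462 of 43346 genes matched. Of 129 transcripts of the 29 genes, 14 differ in length between the tables and M21.

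Levels are means ± SD over 2 libraries, with limits from the two-sided 95% t value on 2 degrees of freedom. Libraries were scaled by TMM (edgeR 4.0.16, R 4.3.3) and compared by an exact binomial test (scipy 1.17.1) over genes with at least 10 counts. Intervals cover counting error only. DESeq2 1.42.0 size factors, other pseudocounts, FPKM, posterior means, CPM and each library alone were alternatives, and coding-only TPM and TCACCCCA were added after seeing the data. The test was checked on simulated data. The 29 genes, the further lists and the markers were chosen with earlier results of these data known. All 29 genes are named. Of each further list the highest and lowest gene, those under 1 TPM where 4 or fewer, and genes called between libraries where 4 or fewer are named, as are transcripts of Srebf1, Srebf2, Insig1 and Insig2 and of genes whose leader differed or was not coding. Other values named beside these (Lrp8, Nr1h2, Idi2, the Lss transcripts) were chosen after they were seen. A gene that this rule would name is not reported here.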

Additional observations from a re-analysis of the deposited data

How the results depend on the processing

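Only 18% and 17% of TPM fell on nuclear protein-coding genes, so absolute levels depend on what else fills the total. The median level of the 29 genes moved from 11.6 TPM to 34.7 in FPKM, to 66.3 with TPM rescaled to nuclear protein-coding genes and to 6.74 with coding transcripts only (chosen after seeing the data), and was 10.4 to 11.2 with each library left out. Neighbouring steps beyond the spread went from 0 to 2 with a pseudocount of 0.1, 16 in CPM, 1 in rescaled TPM and 6 with coding transcripts only. Genes of the list called between libraries went from 0 to 19 with no minimum fold. Over all genes the calls went from 2747 to 557 with at least 50 counts (4.60% of 12103), 9228 with no minimum fold and 138 by TPM. The coefficient of variation was 23% with DESeq2 and 29.8% with no filter, beside 16.1%. Detected genes (20 to 28), pairs beyond the spread (8 to 13 of 17, with 8 to 10 from a single library) and leading transcripts (15) stayed within 1.5 times under the alternatives run, and no gene pair of the 17 turned its direction. Of the 28 neighbouring steps, none beyond the spread by TPM, the sign turned in 10 in CPM, 6 with coding transcripts only, 3 with posterior means, 7 without replicate 1 and 2 without replicate 2. The cause of these shifts was not tested. Genes that share exon bases with a neighbour on the other strand (Cyp51 with Akap9, Srebf1 with Rai1, Fdft1 with Ctsb, Ggps1 with Arid4b, Npc1 with Rmc1, Scap with 5830462I19Rik, Lss with 4930483K19Rik at 0 counts) are uncertain. Acat2, Idi1, Fdps, Fdft1 and Tm7sf2 had counts that were not whole, so part of their reads was divided with other genes. Sc5d-201 and Ggps1-201 are 2249 and 2367 nt in the tables and 4787 and 4244 nt in M21. No paired analysis was possible because both libraries belong to 1 group.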
